A study of Rattus norvegicus with 54 samples.

Results

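The 9 genes described here encode the enzymes that make carnitine and the acyltransferases that join fatty acids to it: *Cpt1a*, *Cpt1b*, *Cpt1c*, *Cpt2*, *Crat*, *Crot*, *Tmlhe*, *Aldh9a1* and *Bbox1*. They were chosen by their role and not by a measured value, though with earlier results of these data known. A member was read from the probe sets that carry its symbol and no other. Each member had 1 probe set on the array, so that 9 of 14506 named genes, and 9 of 15310 probe sets with 1 gene symbol, were followed. All 9 were matched by gene ID to a RefSeq record of the same symbol.

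Long-chain fatty acids cannot cross the inner mitochondrial membrane as CoA esters. Carnitine palmitoyltransferase 1 (CPT1), on the outer membrane, moves the acyl group to carnitine, a carrier exchanges acylcarnitine for free carnitine across the inner membrane, and CPT2 on its inner face returns the acyl group to CoA for β-oxidation. CPT1 is the step that malonyl-CoA inhibits, CPT1A is known as the liver isoform and CPT1B as the muscle isoform, and carnitine itself is made from trimethyllysine, with the last step known chiefly from liver and kidney.

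RNA was extracted from whole liver and from hind limb skeletal muscle of Wistar rats and read on Rat Gene ST arrays. Liver came from foetuses of gestational days 16, 20 and 22 (F16, F20, F22), from pups of postnatal days 1 and 4 (P1, P4) and from adults of day 90 (P90), with 4 arrays a group. Muscle came from F16, F18, F20 and F22 foetuses and from P1 and P4 pups, with 5 arrays a group. No group was treated, foetuses were taken by Caesarean section after the mother had been killed, and the colony had free access to standard chow. The labels call the samples of a group biological replicates, and neither the labels nor the methods say which of them were littermates, so that a p-value measures only the spread between these samples.

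A value is the log2 signal of a probe set after robust multi-array average (RMA), and a log2 difference of 1 stands for a 2-fold change of signal. Each tissue was normalised on its own, so that levels were not set against each other between tissues or between probe sets, and changes within a tissue are what was compared. An array correlated with the rest of its group at a mean of 0.983 to 0.997 in liver and 0.988 to 0.996 in muscle. The lowest in liver was P1 replicate 1. It was also the lowest P1 array in *Cpt1a*, *Cpt1b*, *Crat* and *Crot* and the highest in *Bbox1*. Values without it are given beside most of the members' changes to and from P1 in liver and beside the list counts across birth. The description of this array in the labels ends in a number, as those of every other liver stage do, while those of the other P1 liver arrays end in letters, and no source used here says what either stands for. In whole tissue, fewer cells of a type and less RNA per cell cannot be told apart. The hepatocyte list (*Alb*, *Ttr*, *Apoa1* and 8 others measured) had a log2 summed signal of 15.9 to 16.0 in F16 liver and of 16.7 to 16.8 at P4. The skeletal muscle fibre list (*Ckm*, *Acta1*, *Tnni2* and 7 others measured) had 13.0 to 13.7 in F16 muscle and 15.9 to 16.0 at P4.

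In liver all 9 members changed over F16, F20, F22, P1 and P4 by the moderated F-test of limma, with p-values adjusted by Benjamini-Hochberg and a threshold of 0.05 for every call below, against 65.9% of all probe sets. The call of *Cpt1c* was lost when the arrays were normalised again by quantiles (adjusted p = 0.078) or centred on their medians (0.058). In muscle all 9 changed as well, against 71.9%. The share of all probe sets called was high, and the counts of members are read against it throughout.

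*Cpt1a*, the liver isoform of CPT1, rose in liver before birth and again across birth. Its log2 level was 7.79, 7.80, 8.11 and 8.00 in the F16 arrays and 7.83, 8.06, 7.96 and 8.17 at F20. At F22 it was 10.49, 10.25, 9.35 and 9.65, and every F22 array lay above every earlier one. The 4 P1 arrays gave 12.15, 12.73, 12.65 and 12.73, again without overlap. P4 arrays gave 12.46, 12.01, 12.18 and 12.47, and the adult P90 arrays 12.09, 12.04, 12.04 and 12.06. The highest group mean was thus at P1 (12.56 ± 0.28, SD, n = 4), followed by P4 (12.28 ± 0.22) and P90 (12.06 ± 0.02), and the differences of P4 from both neighbours did not pass the test. *Cpt1a* changed on the log2 scale by 0.08 ± 0.19 (SE) from F16 to F20 (adjusted p = 0.82), 1.93 ± 0.19 from F20 to F22 (3.1e-07) and 2.63 ± 0.19 from F22 to P1 (3.7e-09), the last a 6.18-fold rise of signal. Without P1 replicate 1 that change was 2.77 (2.1e-09). From F16 to P4 the log2 change was 4.36 ± 0.19 (2.3e-13), or 20.5-fold. After birth the log2 difference was -0.28 ± 0.19 from P1 to P4 (0.42), or -0.42 (0.18) without P1 replicate 1, and -0.22 ± 0.18 from P4 to P90 (0.29).

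*Cpt1a* was measured in muscle too and rose there by less. The F16 arrays gave log2 levels of 8.43, 8.24, 8.55, 8.12 and 8.78, and all 5 F18 arrays gave 8.63 to 9.05, so that a single F16 array lay within the F18 range. Values then stayed between 8.79 and 9.15 at F20 and F22. The P1 arrays gave 9.10, 9.51, 9.09, 9.49 and 9.26, and the P4 arrays 10.03, 10.24, 10.02, 10.02 and 10.02. All P4 arrays were above all others. Steps that passed were 0.43 ± 0.10 from F16 to F18 (adjusted p = 0.0011), 0.39 ± 0.10 from F22 to P1 (0.007) and 0.78 ± 0.10 from P1 to P4 (1.9e-06), while F18 to F20 (0.20 ± 0.10, 0.13) and F20 to F22 (-0.15 ± 0.10, 0.33) did not pass. Over F16 to P4 the log2 change was 1.64 ± 0.10 (3.4e-13). It was larger in liver by 2.71 ± 0.21 on the log2 scale (2.5e-14, test of the difference between tissues), and across birth by 2.24 ± 0.21 (8.9e-11), or 2.38 (1.1e-11) without liver P1 replicate 1.

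**Figure D1:**
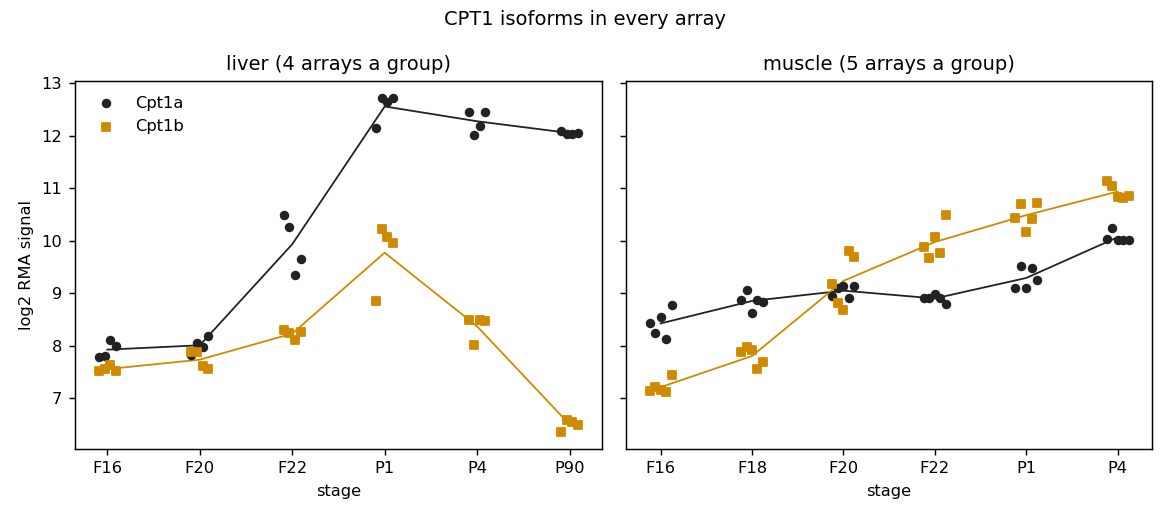
Log2 RMA signal of *Cpt1a* (circles) and *Cpt1b* (squares) in every array by stage, in liver (4 arrays a group) and muscle (5 arrays a group), with lines through the group means. Liver *Cpt1a* climbs from about 8 at F20 to above 12 from P1 on, the muscle *Cpt1b* means climb from stage to stage, and liver *Cpt1b* has its maximum at P1; the heights of the 2 probe sets are not comparable with each other.

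The promoters of the liver members that rose across birth are shown because each of these genes passed the test from F22 to P1. Windows of 300 bases, from 250 before to 50 after a transcript start, were taken from RefSeq (build GRCr8), which held them for 7 of the 9 members and not for *Cpt1b* or *Cpt1c*. Capitals mark matches, on either strand, to the TATA box (TATAAA), to CCAAT, to the GC box (GGGCGG), to a nuclear receptor half-site (AGGTCA) and to the core of the cAMP response element (TGACG), and no 2 matches overlap in the printed windows. The windows are *Cpt1a* at chr1:209995910-209996209 (plus strand), *Cpt2* at chr5:127910769-127911068 (minus strand), *Crat* at chr3:34087050-34087349 (minus strand), *Crot* at chr4:26052874-26053173 (plus strand) and *Bbox1* at chr3:117326015-117326314 (minus strand), the last for the upstream of its 2 starts:
Cpt1a: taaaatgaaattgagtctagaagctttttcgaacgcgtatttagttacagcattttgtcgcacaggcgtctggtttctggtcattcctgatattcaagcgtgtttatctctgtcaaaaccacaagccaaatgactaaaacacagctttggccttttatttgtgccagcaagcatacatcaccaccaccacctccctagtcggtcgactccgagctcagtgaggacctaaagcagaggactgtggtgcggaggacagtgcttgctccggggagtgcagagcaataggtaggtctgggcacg
Cpt2: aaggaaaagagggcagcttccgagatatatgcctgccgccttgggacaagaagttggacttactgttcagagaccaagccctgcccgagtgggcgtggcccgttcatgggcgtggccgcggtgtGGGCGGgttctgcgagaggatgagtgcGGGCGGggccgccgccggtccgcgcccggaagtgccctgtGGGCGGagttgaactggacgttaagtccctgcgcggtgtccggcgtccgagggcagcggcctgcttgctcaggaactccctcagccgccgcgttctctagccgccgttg
Crat: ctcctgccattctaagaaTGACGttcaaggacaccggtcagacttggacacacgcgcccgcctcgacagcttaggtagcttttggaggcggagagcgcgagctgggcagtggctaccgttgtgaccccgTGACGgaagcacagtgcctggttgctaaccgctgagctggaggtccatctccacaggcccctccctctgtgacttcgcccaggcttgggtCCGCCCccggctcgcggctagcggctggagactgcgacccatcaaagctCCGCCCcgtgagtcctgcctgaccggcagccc
Crot: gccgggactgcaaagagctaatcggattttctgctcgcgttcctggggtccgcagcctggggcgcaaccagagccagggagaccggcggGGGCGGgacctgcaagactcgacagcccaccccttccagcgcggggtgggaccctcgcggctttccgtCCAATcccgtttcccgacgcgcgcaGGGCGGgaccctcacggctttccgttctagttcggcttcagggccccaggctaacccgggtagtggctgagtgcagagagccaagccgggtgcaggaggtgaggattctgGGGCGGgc
Bbox1: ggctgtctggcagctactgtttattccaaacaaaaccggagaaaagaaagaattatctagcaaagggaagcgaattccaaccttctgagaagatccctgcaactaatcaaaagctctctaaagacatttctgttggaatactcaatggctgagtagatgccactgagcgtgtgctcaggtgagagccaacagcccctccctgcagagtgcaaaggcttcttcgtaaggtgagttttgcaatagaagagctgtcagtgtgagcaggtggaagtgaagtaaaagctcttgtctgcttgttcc

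The *Cpt1a* and *Bbox1* windows printed held no match to any of the 5 motifs, which says only that these letters are not in this stretch, and the window of the other *Bbox1* start held 1 AGGTCA match, 24 bases after the start. The GC content of the *Cpt1a* and the printed *Bbox1* window was 48.3% and 46%, against a median of 51.7% over all 33469 windows. The windows of *Cpt2* (66.7% GC), *Crat* (64.7%) and *Crot* (68%) were richer in GC. *Cpt2* and *Crot* each held 3 GC boxes and *Crat* 2, and *Crat* also had 2 TGACG matches and *Crot* 1 CCAAT. The windows of *Tmlhe* (67% GC, 2 GC boxes) and *Aldh9a1* (67.7%, 2 GC boxes, 1 CCAAT, 1 AGGTCA), not printed, were alike, although neither gene passed the test across birth in liver. GC boxes and a high GC content were thus seen both in members called across birth in liver and in members not called. Their part in the rise was not tested. Of all windows 33.1% held a GC box, 21.2% TGACG, 37.5% CCAAT, 16.2% AGGTCA and 14.2% TATAAA. A match is a run of letters and not a proven site, and no array value here measures binding.

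*Cpt1b*, the muscle isoform of CPT1, rose in muscle at every step up to P1. Its log2 level was 7.13, 7.21, 7.15, 7.12 and 7.43 at F16 and 7.87, 7.97, 7.92, 7.56 and 7.68 at F18, with no overlap. At F20 the arrays gave 9.17, 8.82, 8.68, 9.81 and 9.69, the widest spread of this gene in muscle (SD 0.51). The F22 arrays gave 9.88, 9.67, 10.07, 9.78 and 10.48, the P1 arrays 10.43, 10.71, 10.16, 10.42 and 10.72, and the P4 arrays 11.15, 11.04, 10.83, 10.82 and 10.85. F20 overlapped F22 and F22 overlapped P1, while every P4 array lay above every P1 array. The log2 change was 0.59 ± 0.17 from F16 to F18 (adjusted p = 0.0068), 1.43 ± 0.17 from F18 to F20 (2.5e-07), 0.74 ± 0.18 from F20 to F22 (0.0047) and 0.51 ± 0.18 from F22 to P1 (0.047). The step from P1 to P4, 0.45 ± 0.18, did not pass (0.053). Both postnatal steps lay close to the threshold: leaving out 1 array ended the call from F22 to P1 in 18 of 25 cases (adjusted p up to 0.13) and made the call from P1 to P4 in 7 of 25. Some of the arrays left out belonged to other stages, and the change itself then stayed the same. Over F16 to P4 the log2 change was 3.73 ± 0.18 (4.4e-15), a 13.3-fold rise. The 10 measured fibre genes all rose as well over this span, with a median log2 change of 2.77, and what part of the rise of *Cpt1b* goes with fibre content was not tested.

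*Cpt1b* changed in liver too, where it rose across birth and fell after it. Levels on the log2 scale were 7.51, 7.55, 7.63 and 7.51 at F16, 7.88, 7.88, 7.61 and 7.55 at F20, and 8.31, 8.25, 8.11 and 8.26 at F22. All F22 arrays were above the foetal arrays before them, although the change of 0.50 ± 0.20 from F20 to F22 did not pass (adjusted p = 0.061). The P1 arrays gave 8.85, 10.22, 10.07 and 9.95, all above F22, with replicate 1 far below the other P1 arrays. The P4 arrays gave 8.50, 8.02, 8.48 and 8.47, and the P90 arrays 6.35, 6.59, 6.55 and 6.49, the lowest of all liver groups. The log2 change from F22 to P1 was 1.54 ± 0.20 (4.6e-06), or 1.85 (1.9e-10) without replicate 1. The gene fell by 1.41 ± 0.20 from P1 to P4 (0.00021), or by 1.71 (1.2e-08) without replicate 1, and by 1.87 ± 0.19 from P4 to P90 (1.1e-08). Without replicate 1 of P1 the step from F20 to F22 passed too (0.00054), as it did without P1 replicate 2 (0.044).

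Muscle fibre genes were not higher in the P1 liver arrays, where *Cpt1b* was highest. The log2 summed signal of the 10 measured fibre genes was 10.0 to 10.1 in the P1 liver arrays, against 10.1 to 12.7 at F22, and 0 of the 10 changed from F22 to P1 by limma (at the same threshold without adjustment 4 fell and 0 rose). The count of called fibre genes was 0 as well when P1 replicate 1 was left out. The log2 summed signal of the 8 adipocyte genes measured was 11.6 to 11.7 in the F22 liver arrays and 13.3 to 13.6 at P1. Of these genes *Pck1* (5.15 ± 0.26, adjusted p = 3e-11), *Cidec* (1.46 ± 0.16, 4.5e-07) and *Cfd* (1.08 ± 0.13, 1.9e-06) rose, with a median log2 change of 0.35 over the 8, while *Adipoq* (0.16 ± 0.07, 0.075), *Plin1* (-0.04 ± 0.07, 0.67), *Lep* (-0.04 ± 0.09, 0.75), *Fabp4* (0.37 ± 0.21, 0.2) and *Lpl* (0.33 ± 0.17, 0.16) did not pass. The same 3 rose without P1 replicate 1, with a median of 0.16. The sum thus rose with 3 of the 8 genes, *Pck1* by far the most, and does not stand for the list as a whole. The part of the fibre and adipocyte genes in the *Cpt1b* level was not tested.

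The difference between the CPT1 probe sets on each array shows how unequally they changed. It is no ratio of amounts, since the 2 probe sets bind with unlike strength. In liver *Cpt1a* minus *Cpt1b* was 0.37 ± 0.13 (SD, n = 4) on the log2 scale at F16, 0.27 ± 0.28 at F20, 1.71 ± 0.46 at F22, 2.79 ± 0.36 at P1, 3.91 ± 0.15 at P4 and 5.56 ± 0.13 at P90. From F20 on it thus widened at each stage. In muscle it was 1.22 ± 0.19 (n = 5) at F16, 1.05 ± 0.23 at F18, -0.19 ± 0.56 at F20, -1.08 ± 0.36 at F22, -1.20 ± 0.21 at P1 and -0.87 ± 0.14 at P4. Its sign turned between F18 and F22, with F20 arrays on both sides of 0. By exact 2-sided permutation tests, adjusted over the 5 made, the liver difference grew by 3.54 from F16 to P4, by 1.08 from F22 to P1 and by 1.65 from P4 to P90 (each exact p = 0.029, adjusted 0.036, where 0.029 is the smallest p that 4 against 4 arrays allow). Without P1 replicate 1 the growth from F22 to P1 was 0.91 (adjusted p = 0.071 by the same test). The arrays then left are too few for this test to reach the threshold, whatever their values. In muscle it fell by 2.09 from F16 to P4 (exact p = 0.0079, the smallest possible for 5 against 5, adjusted 0.036) and its change of -0.12 from F22 to P1 did not pass (exact p = 0.53).

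**Figure D2:**
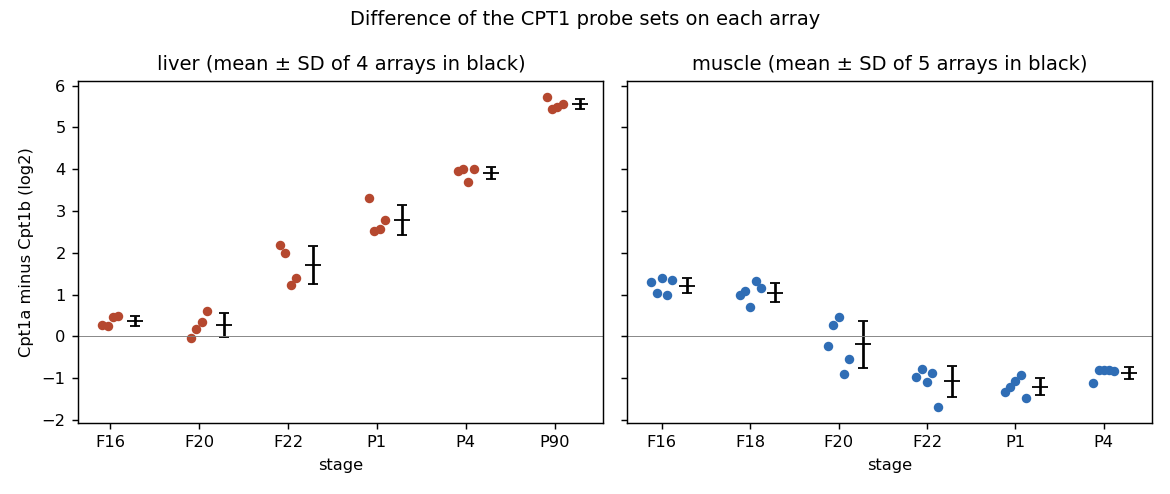
*Cpt1a* minus *Cpt1b* on the log2 scale in every array by stage, in liver and muscle, with the group mean ± SD in black (n = 4 and n = 5). The liver difference widens from 0.27 at F20 to 5.56 at P90, and the muscle difference turns from 1.22 at F16 to -0.87 at P4.

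*Cpt1c*, an isoform known chiefly from brain, changed little. Its log2 level ran from 6.55 to 7.16 over all 24 liver arrays. The liver changes that passed were small, 0.20 ± 0.08 from F20 to F22 (adjusted p = 0.041) and 0.18 ± 0.08 from F16 to P4 (0.044), and normalising the arrays again by quantiles ended both, as did leaving out 1 array in 7 and in 8 of 20 cases. In muscle the level was 8.96 to 9.24 at F16 and 8.40 to 8.70 at P4, without overlap. The fall over this span was 0.53 ± 0.08 (1.5e-06), and the steps that passed were -0.27 ± 0.08 from F16 to F18 (0.011) and -0.23 ± 0.08 from F18 to F20 (0.031). The last of these did not pass without F18 replicate 2 or 3 or F20 replicate 4 or 5 (adjusted p from 0.05 to 0.13), nor without F16 replicate 5, F20 replicates 4 and 5 and F22 replicate 5 together (-0.09, 0.47) or with array weights (-0.11, 0.18). The step from F20 to F22 passed instead without those 4 arrays (-0.24, 0.021) and with array weights (-0.19, 0.011).

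*Cpt2*, the acyltransferase of the inner membrane, rose in liver from F16 to F20, a step at which *Cpt1a* did not pass, and again across birth. The log2 signal was 9.43, 9.35, 9.38 and 9.33 at F16 and 10.23, 10.18, 10.11 and 10.24 at F20, with a wide gap between the groups. It was 10.41, 10.48, 10.49 and 10.42 at F22 and 11.32, 11.44, 11.24 and 11.50 at P1, each group above the one before. P4 arrays fell back to 10.73, 10.67, 10.85 and 10.84, and P90 arrays lay within that range, with 10.84, 10.72, 10.76 and 10.72. *Cpt2* rose by 0.82 ± 0.06 on the log2 scale from F16 to F20 (adjusted p = 9.5e-09), 0.26 ± 0.06 from F20 to F22 (0.0016) and 0.92 ± 0.06 from F22 to P1 (9.3e-10), and 0.94 for the last without P1 replicate 1. It fell by 0.60 ± 0.06 from P1 to P4 (5.1e-06), or by 0.62 without that array, and P4 to P90 gave -0.01 ± 0.06 (0.86). From F16 to P4 the log2 change was 1.40 ± 0.06 (1.6e-13).

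In muscle *Cpt2* moved within a narrow range, from 9.40 to 10.07 over all arrays. It fell by 0.21 ± 0.06 from F16 to F18 (adjusted p = 0.0071) and rose by 0.28 ± 0.06 from P1 to P4 (0.0015). The F22 to P1 difference of 0.15 ± 0.06 did not pass (0.11), but did with array weights (0.17, 0.014) and without F16 replicate 5, F20 replicates 4 and 5 and F22 replicate 5 (0.17, 0.028). Without those 4 arrays the step from F16 to F20 passed too (-0.19, 0.014). The liver change exceeded the muscle change by 1.08 ± 0.09 over F16 to P4 (1.2e-13) and by 0.77 ± 0.09 from F22 to P1 (1.1e-08), or 0.79 without liver P1 replicate 1.

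*Crat*, which moves acetyl and other short acyl groups between CoA and carnitine, rose across birth in liver and was lowest in the adult there, and rose over the series in muscle. In liver its log2 level stayed between 9.14 and 9.42 in all 12 foetal arrays. At P1 it was 9.70, 10.41, 10.32 and 10.33, above every foetal array, and at P4 9.82, 9.88, 9.83 and 9.86. The adult arrays gave 8.70, 8.59, 8.60 and 8.61, below all others. The log2 change from F22 to P1 was 1.02 ± 0.11 (adjusted p = 3.3e-07), and 1.18 (8.7e-12) without P1 replicate 1. From P4 to P90 the gene fell by 1.22 ± 0.10 (2.8e-10). The difference from P1 to P4 was -0.34 ± 0.11 and just met the threshold (0.05). That call lay on the threshold, and leaving out 1 array ended it in 19 of 20 cases. These include all 12 foetal arrays, which are no part of the contrast: the change stayed at -0.34 and the adjusted p was 0.054 to 0.062. The exception was P1 replicate 1, without which the fall was 0.51 (1e-05).

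In muscle *Crat* rose with age. Its log2 level was 9.89, 10.05, 9.98, 9.82 and 9.75 at F16 and 9.75 to 9.86 at F18, and then 10.29, 10.11, 10.02, 10.50 and 10.37 at F20. At F22 it was 10.37, 10.31, 10.47, 10.24 and 10.83 and at P1 10.64, 10.91, 10.55, 10.63 and 10.81. The P4 arrays gave 11.16, 11.21, 11.08, 11.17 and 11.11, above all earlier arrays. The log2 change was 0.43 ± 0.09 from F18 to F20 (adjusted p = 0.00054) and 0.44 ± 0.10 from P1 to P4 (0.0013), and 1.25 ± 0.10 from F16 to P4 (4.6e-11). The F22 to P1 difference of 0.26 ± 0.10 did not pass (0.067) and did so without F22 replicate 5, the highest F22 array (0.36, 0.0043), or without P1 replicate 3 (0.048). Over F16 to P4 the muscle change was the larger by 0.71 ± 0.15 (7.9e-05, liver minus muscle -0.71), and across birth the liver change was the larger by 0.75 ± 0.15 (0.00012), or 0.91 (3.4e-07) without liver P1 replicate 1.

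*Crot*, the peroxisomal octanoyltransferase that hands medium-chain products on to mitochondria, rose in liver and fell before birth in muscle. In liver the log2 level was 10.12 to 10.27 in the F16 and F20 arrays, and 10.70, 10.78, 10.58 and 10.75 at F22. At P1 it was 10.93, 11.95, 11.83 and 11.79, where replicate 1 was closer to F22 than to the rest of its group. P4 arrays gave 11.87, 11.69, 11.79 and 11.88 and P90 arrays 11.63, 11.70, 11.65 and 11.74. The log2 change was 0.53 ± 0.14 from F20 to F22 (adjusted p = 0.0063) and 0.92 ± 0.14 from F22 to P1 (3.8e-05), or 1.15 (8.7e-11) without replicate 1. No later step passed, with P1 to P4 at 0.18 ± 0.14 (0.49), or -0.05 (0.7) without replicate 1. F16 to P4 gave 1.63 ± 0.14 (4.9e-09).

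In muscle *Crot* was 10.87, 10.98, 10.50, 10.79 and 10.51 at F16 and 9.60, 9.56, 10.29, 10.06 and 10.31 at F20. It was 10.65, 10.69, 10.60, 10.57 and 10.57 at P4, back within the F16 range. It fell by 0.65 ± 0.14 from F18 to F20 (adjusted p = 0.00086) and rose by 0.59 ± 0.15 from P1 to P4 (0.0027), so that F16 to P4 gave -0.12 ± 0.15 (0.53). The tissues differed by 1.74 ± 0.21 over F16 to P4 (4e-09) and by 0.95 ± 0.21 from F22 to P1 (0.00059), or 1.19 (3.1e-06) without liver P1 replicate 1, with the liver change the higher each time.

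**Figure D3:**
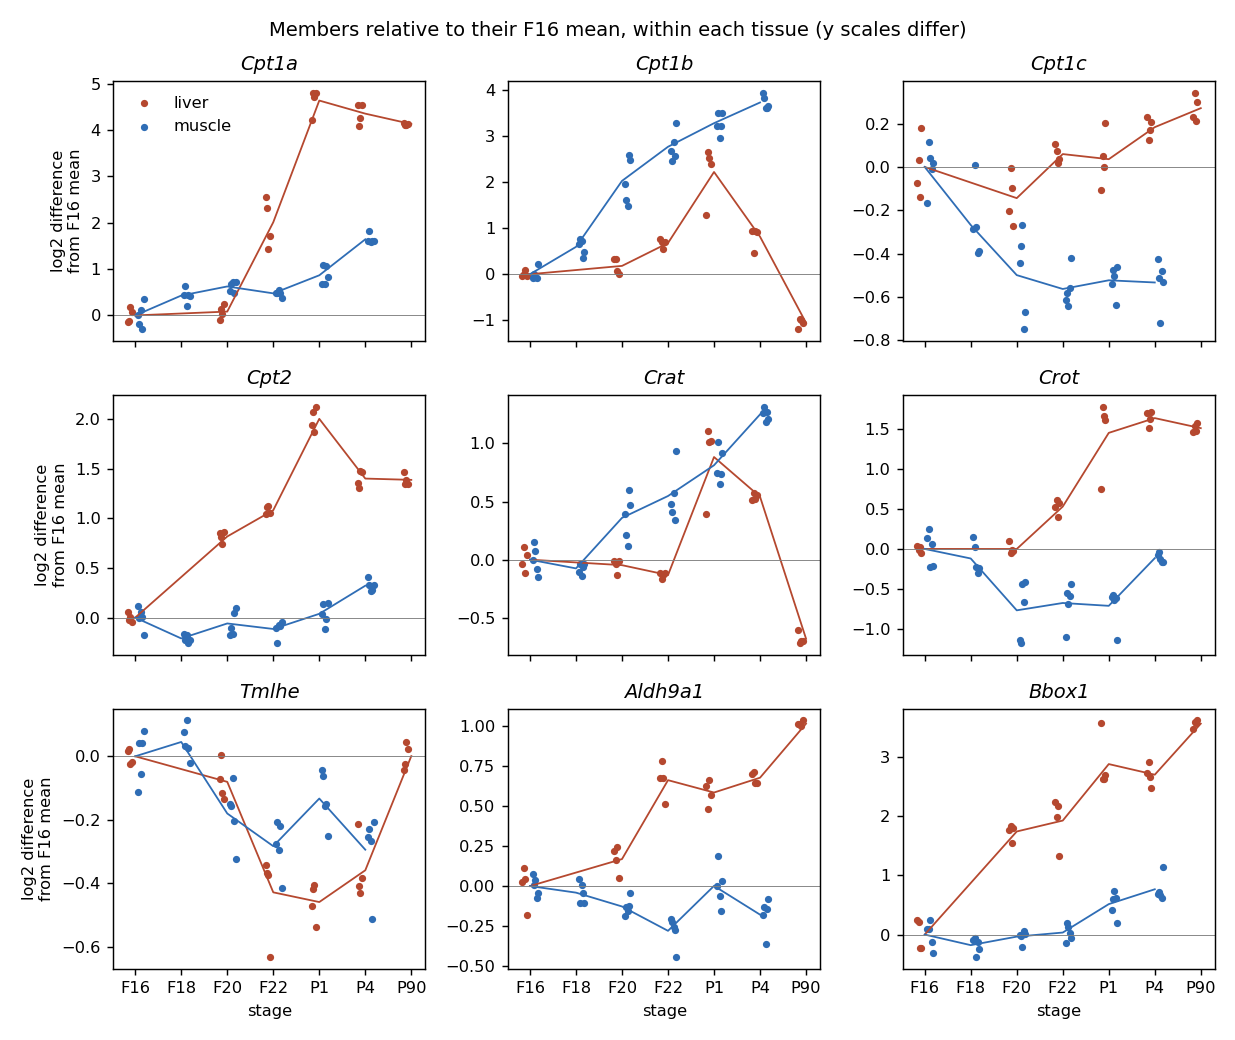
Log2 signal of each member in every array minus the F16 mean of the same tissue, by stage, in liver (red) and muscle (blue), with lines through the group means and a y scale of its own in each panel. Liver changes are larger than muscle changes for *Cpt1a*, *Cpt2*, *Crot*, *Aldh9a1* and *Bbox1*, and smaller for *Cpt1b* and *Crat*, over F16 to P4.

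Of the carnitine synthesis enzymes, *Tmlhe*, which hydroxylates trimethyllysine in the first step, was a little lower around birth in liver. The log2 level was 8.92 to 8.96 at F16 and 8.80 to 8.94 at F20. It was 8.31 to 8.60 at F22, 8.40 to 8.53 at P1 and 8.51 to 8.72 at P4, all below the F20 arrays, and 8.90 to 8.98 at P90. The gene fell by 0.35 ± 0.07 from F20 to F22 (adjusted p = 0.00028) and rose by 0.36 ± 0.06 from P4 to P90 (2.8e-05). Over F16 to P4 it fell by 0.36 ± 0.07 (7.8e-05), the only member with a fall over this span in liver. In muscle it fell by 0.29 ± 0.06 over the same span (0.00019), and the difference of these changes between tissues did not pass (-0.06 ± 0.09, 0.56). The muscle call from P1 to P4 (-0.16 ± 0.06, 0.048) was lost when 1 array was left out in 17 of 25 cases, some of them with arrays of other stages, where the change itself stayed the same.

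*Aldh9a1*, the aldehyde dehydrogenase that yields γ-butyrobetaine, rose in liver before birth and toward the adult. Its log2 level was 11.03 to 11.33 at F16, 11.26 to 11.46 at F20 and 11.72 to 12.00 at F22. It stayed between 11.69 and 11.93 at P1 and P4, and was 12.21 to 12.25 at P90, above all earlier arrays. It rose by 0.49 ± 0.07 from F20 to F22 (adjusted p = 1.4e-05) and by 0.34 ± 0.06 from P4 to P90 (0.0001), while across birth the difference of -0.08 ± 0.07 did not pass (0.44), nor did it without P1 replicate 1 (-0.09, 0.39). In muscle all arrays lay between 10.23 and 10.86, with a rise of 0.28 ± 0.06 from F22 to P1 (0.0022) and a fall of 0.18 ± 0.06 from P1 to P4 (0.027). The fall was lost without P1 replicate 2, P1 replicate 5 or P4 replicate 3 (adjusted p from 0.054 to 0.1), and F16 to P4 in muscle (-0.18 ± 0.06, 0.014) was lost without P4 replicate 3 (0.059).

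*Bbox1*, γ-butyrobetaine hydroxylase, which makes carnitine in the last step, rose in liver over the earliest interval measured and again in the adult. Its log2 level was 7.37, 7.33, 6.89 and 6.89 at F16 and 8.89, 8.96, 8.67 and 8.93 at F20. It was 9.36, 9.10, 9.28 and 8.44 at F22, where replicate 4 lay below every F20 array. At P1 it was 10.69, 9.74, 9.74 and 9.82, with replicate 1 the highest, while this array was the lowest of its group in *Cpt1a*, *Cpt1b*, *Crat* and *Crot*. P4 arrays gave 9.85, 10.04, 9.78 and 9.60, and P90 arrays 10.59, 10.71, 10.69 and 10.74. The log2 change was 1.74 ± 0.20 from F16 to F20 (adjusted p = 4.6e-06), 0.95 ± 0.20 from F22 to P1 (0.00095) and 0.86 ± 0.19 from P4 to P90 (0.00053). Without P1 replicate 1 the change across birth was 0.72 (0.0025). F20 to F22 (0.18 ± 0.20, 0.55) and P1 to P4 (-0.18 ± 0.20, 0.67) did not pass, and the sign of the latter turned without P1 replicate 1 (0.05, 0.89).

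In muscle the log2 level of *Bbox1* was 5.37 to 6.0 in the 20 foetal arrays. It was 6.16, 6.35, 6.48, 6.37 and 5.94 at P1 and 6.44, 6.47, 6.41, 6.36 and 6.88 at P4, so that P4 lay above all foetal arrays. The rise of 0.48 ± 0.11 between F22 and P1 passed the test (adjusted p = 0.0032). The mean of *Bbox1* over all muscle arrays was 5.93, with only 10.3% of probe sets below it, against a median of 8.72. Its changes in muscle thus lie at a low signal. The liver change over F16 to P4 was the larger by 1.93 ± 0.23 (1.5e-09), and across birth the difference of 0.47 ± 0.23 did not pass (0.12), nor did it without liver P1 replicate 1 (0.24, 0.41). The hepatocyte list in the muscle arrays had a log2 summed signal of 11.3 to 13.0 at F22 and 11 to 12.2 at P1. Over that step 0 of its 11 measured genes changed by limma (0 at an unadjusted p of at most 0.05). At P4 the sum was 11.4 to 13.5. From P1 to P4 0 of the 11 were called, 1 rose at the unadjusted threshold, and the median log2 change was 0.54. The part of the hepatocyte genes in the *Bbox1* level was not tested.

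Over the intervals of liver, the members compare with all probe sets as follows. From F16 to F20, 2 of 9 rose and 0 fell, where 8.48% of all probe sets rose and 11.9% fell. From F20 to F22, 5 rose and 1 fell (14.6% and 20.8% of all). Across birth 6 rose and 0 fell (13.9% and 21%), with a median log2 change of the 9 members of 0.92 against 0.00 over all. From P1 to P4, 0 rose and 3 fell (3.98% and 4.89%). The 6 that rose across birth were the acyltransferases without *Cpt1c*, and *Bbox1*. From F16 to P4, 8 rose and 1 fell (22.5% and 34.4%), and from P4 to P90, 3 rose and 2 fell (28.8% and 27.1%), a share like that of all probe sets. The 3 that rose toward the adult were the synthesis enzymes, and those that fell were *Cpt1b* and *Crat*. Without P1 replicate 1 the counts were again 6 across birth and 3 from P1 to P4, and 7 from F20 to F22 with *Cpt1b* added.

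In muscle the counts were as follows. From F16 to F20, 3 rose and 3 fell, where 19.9% of all probe sets rose and 27.2% fell. Of the shorter steps, F16 to F18 had 2 up and 2 down (14.1% and 19.3%), F18 to F20 had 2 up and 3 down (14.6% and 15.9%), and F20 to F22 had *Cpt1b* up and 0 down (5.34% and 12.2%). Across birth 4 rose and 0 fell (8.74% and 7.8%), with a median of 0.26 against -0.01 over all. From P1 to P4, 4 rose and 2 fell (18.2% and 13.8%), and from F16 to P4, 5 rose and 3 fell (26.4% and 34.3%). The change differed between the tissues in 8 of 9 members over F16 to P4, where 56.3% of all probe sets did, and in 6 of 9 from F22 to P1, where 30% did.

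**Figure D4:**
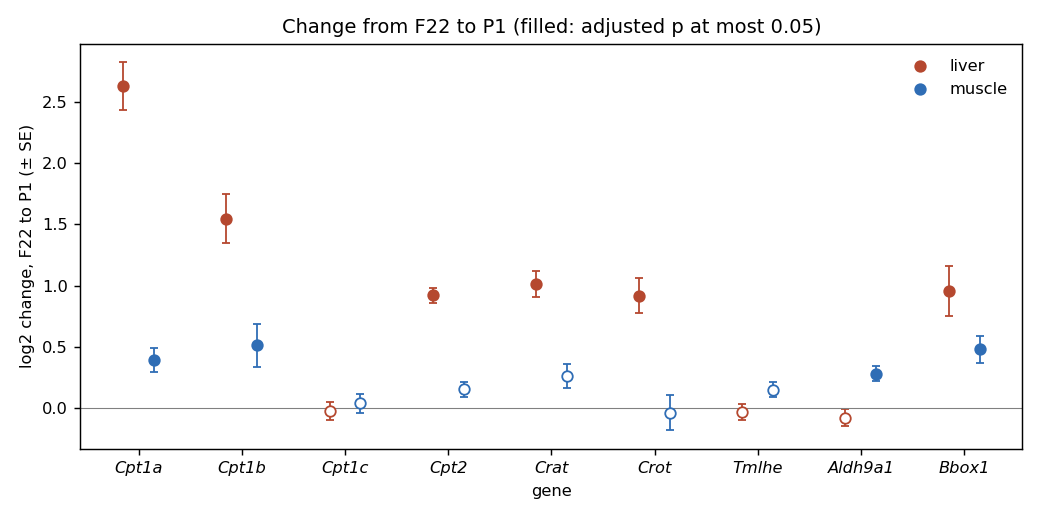
Log2 change from F22 to P1 for each member in liver (red, 8 arrays) and muscle (blue, 10 arrays), filled for an adjusted p of at most 0.05. The SE drawn is that of the limma fit, whose spread was estimated over all 20 liver or 25 muscle arrays of the 5 shared stages. *Cpt1a* has the highest change in liver (2.63), and in muscle no member exceeds 0.51.

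Genes that work beside the members were followed by lists, which were also chosen with earlier results of these data known. Of the carnitine carriers and transporters, 3 of 6 listed genes were measured on a probe set of their own. *Slc25a20*, the carnitine-acylcarnitine exchanger of the inner membrane, rose in liver by 0.93 ± 0.05 across birth (adjusted p = 8.5e-11; 0.95 without P1 replicate 1), close to the size of *Cpt2*, and fell by 0.39 ± 0.05 from P4 to P90 (2.1e-07). *Slc25a29*, a mitochondrial carrier of basic amino acids, rose by 0.50 ± 0.10 from P4 to P90 (0.00015), and the liver changes of *Slc6a14*, an amino acid transporter of the plasma membrane that also takes carnitine, did not pass from F22 to P1 or from P4 to P90. In muscle *Slc25a20* fell by 0.35 ± 0.05 from F16 to F18 (3.4e-06) and rose by 0.22 ± 0.05 from F22 to P1 (0.0044), so that F16 to P4 gave 0.08 ± 0.05 (0.2).

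The mitochondrial β-oxidation list, the enzymes that receive what CPT2 releases, rose in liver over the same intervals. Of its 14 genes 13 rose and 0 fell from F16 to F20 (median log2 change 0.57), 9 rose from F20 to F22 (0.29) and 13 rose from F22 to P1 (0.89), where *Eci1* (1.74 ± 0.14) and *Acadm* (1.10 ± 0.10) were highest and *Etfa* (0.37 ± 0.07) and *Etfb* (0.32 ± 0.06) lowest among the called. The count across birth was again 13 (median 1.00) without P1 replicate 1. From P1 to P4 7 fell and 0 rose (-0.24), and 8 fell without that array. Of all probe sets 8.48%, 14.6% and 13.9% rose in the steps up to P1, and 4.89% fell from P1 to P4. The median over all probe sets lay between -0.04 and 0.01 in these steps. In muscle 10 rose from F22 to P1 (0.27), with *Acaa2* at 0.51 ± 0.07 (adjusted p = 8.4e-06), against 8.74% of all probe sets, and 13 rose and *Echs1* fell from F16 to P4 (0.38), against 26.4% and 34.3%.

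The peroxisomal list, whose chain-shortened products are the substrates of CROT, rose in liver from F22 to P1 in 9 of 9 genes measured, against 13.9% of all probe sets, with a median log2 change of 1.33. It was 9 of 9 again without P1 replicate 1, with a median of 1.49. The highest were *Ehhadh*, the bifunctional enzyme of the pathway (3.34 ± 0.17, adjusted p = 6e-11), and *Amacr*, an acyl-CoA racemase (2.36 ± 0.16, 1.7e-09). From P4 to P90 6 rose, against 28.8% of all, and *Abcd2*, a transporter of very long-chain acyl-CoA, fell by 5.61 ± 0.22 (3.5e-16). In muscle 4 of 9 rose across birth (median 0.19), against 8.74% of all, with *Abcd2* the highest (0.70 ± 0.16, 0.0036).

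Genes around malonyl-CoA, the inhibitor of CPT1, took mixed courses in liver. Across birth *Mlycd*, which degrades malonyl-CoA, rose by 1.19 ± 0.15 (adjusted p = 2.5e-06) and *Prkaa2*, a catalytic subunit of AMP-activated kinase, by 1.00 ± 0.22 (0.0013), while its subunits *Prkab2* (-0.43 ± 0.12, 0.0055) and *Prkag1* (-0.41 ± 0.06, 7.5e-06) fell. In all 4 of 9 rose and 2 fell, where 13.9% of all probe sets rose and 21% fell, with a median log2 change of 0.04. Without P1 replicate 1, 3 rose and 3 fell, and the median was -0.05. *Prkaa2* then rose by 0.70 (0.0014) and *Prkab2* fell by 0.30 (0.017). The acetyl-CoA carboxylases *Acaca* and *Acacb* are given for their role, since they make malonyl-CoA. Across birth *Acaca* did not pass with all arrays (-0.58 ± 0.24, 0.073) and fell by 0.99 (4.3e-08) without P1 replicate 1. *Acacb* rose (0.29 ± 0.10, 0.038), but did not pass without that array (0.20, 0.14). From P4 to P90 *Acacb* rose by 2.94 ± 0.11 (8.5e-17), *Acaca* by 1.30 ± 0.23 (3.6e-05) and *Prkaa2* by 2.24 ± 0.21 (2.8e-09). *Cpt1a* did not pass the test over that step. In muscle *Acacb* (1.57 ± 0.12, 5.1e-11) and *Prkaa2* (1.51 ± 0.10, 3.7e-12) rose from F16 to P4, and *Acaca* fell by 0.45 ± 0.12 (0.0025).

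Of 8 PPAR and related regulators, transcription factors and coactivators of fatty acid oxidation, 7 rose and 0 fell in both tissues from F16 to P4, with a median of 0.79 in liver and 0.69 in muscle. Of all probe sets 22.5% rose and 34.4% fell in liver over that span, and 26.4% and 34.3% in muscle. In liver *Ppara* rose by 2.12 ± 0.07 (adjusted p = 4.9e-15) and *Ppargc1a* by 1.84 ± 0.31 (3e-05), and both fell from P4 to P90, by 1.29 ± 0.07 (1.5e-13) and 2.36 ± 0.29 (2.4e-07). In muscle *Pparg* (2.33 ± 0.24, 5.2e-09) and *Ppara* (1.52 ± 0.14, 4.9e-10) rose most.

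**Figure D5:**
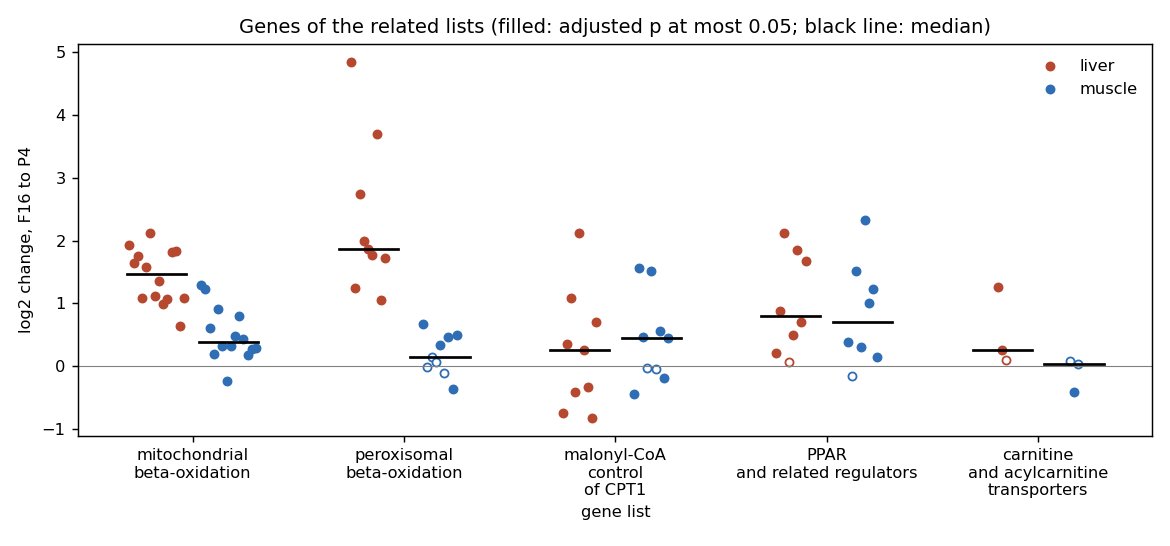
Log2 change from F16 to P4 of each gene of the 5 related lists in liver (red) and muscle (blue), 1 point a gene, filled where the adjusted p was at most 0.05, with the list median as a black line. All mitochondrial and peroxisomal β-oxidation genes measured rise in liver, and the muscle medians of these lists are lower.

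Cell type markers moved over the same stages, and their part in the member changes was not tested. In liver 8 of 8 measured erythroid genes, such as *Klf1* and *Gata1*, fell from F22 to P1 (median log2 change -0.85), with a log2 summed signal of 15.1 to 15.4 at F22, 14.6 to 14.8 at P1 and 11.9 to 12.1 at P90. Over the same step 3 of 11 hepatocyte genes rose and 0 fell (0.02), and *Alb* did not pass the test (0.00, adjusted p = 0.97). Of 12 macrophage genes 1 rose and 2 fell (-0.20), with a sum of 13.7 at F22 and 13.6 to 13.7 at P1. The counts of these 3 lists across birth were the same without P1 replicate 1. From F16 to P4 in liver, 11 of 11 hepatocyte genes (median log2 change 0.63) and 12 of 12 macrophage genes (1.73) rose, and 8 of 8 erythroid genes fell (-0.98). In muscle 7 of 8 adipocyte genes rose from F22 to P1 (1.28), with *Adipoq* the highest (2.73, 0.00015), and their sum went from 11.2 to 11.8 at F22 to 11.8 to 13.4 at P1. The 4 members called in muscle over that step were *Cpt1a*, *Cpt1b*, *Aldh9a1* and, at a low signal, *Bbox1*. Erythroid genes rose in muscle in 6 of 8 from P1 to P4 (1.44), and keratinocyte genes in 4 of 4 from F16 to F20 (2.77).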

How the data were processed

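Total RNA of 24 liver and 30 muscle samples was hybridised to Rat Gene ST arrays. The authors deposited log2 values after RMA, which corrects for background, normalises by quantiles and sums the probes of a set by median polish. Expression Console of Affymetrix is named in the submitters' processing notes, without a version. Quantile normalisation evens out array totals, and RMA compresses changes near background. Precision is limited by 4 or 5 arrays a group.

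Probe sets were named through the platform annotation. 15310 with 1 symbol were used, 323 with several symbols were left out (among them those of *Slc22a4* and *Slc22a5*, which share 1), as were 13581 without a symbol. A listed gene with several probe sets was read from the one with the highest mean in the tissue. Groups and replicate numbers came from the labels.

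Each tissue had its own linear model in limma 3.58.1 (lmFit, eBayes, R 4.3.3), over the 5 shared stages, with no covariate. Contrasts with P90 or F18 came from a fit of the 6 groups of the tissue, and differences between tissues from 1 fit of 45 arrays. p-values were adjusted by Benjamini-Hochberg over all 15310 probe sets, and the threshold was 0.05. The difference of the CPT1 probe sets was tested by exact permutation in scipy 1.17.1. The fits were tested on simulated data.

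The members and all lists were chosen with earlier results of these data known. All members are named, and of the other genes all of a list of up to 6 measured, otherwise the 2 highest and 2 lowest called of an interval, up to 3 markers a list, and the 5 genes most like a member by Pearson correlation. Alternatives were the unadjusted threshold, trend and robust priors, all probe sets, bright probe sets only, quantile normalisation again, median centring, all 6 groups in 1 fit, a block for the replicate number, array weights, both tissues at the same quantiles, leaving out each array, and leaving out 4 muscle arrays that earlier results had shown to lie apart (F16 replicate 5, F20 replicates 4 and 5, F22 replicate 5). Leaving out liver P1 replicate 1 from the gene lists was added after seeing the data.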

Additional observations from a re-analysis of the deposited data

Results flagged for a closer look

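In 12 of 108 groups of a member, the highest or lowest array stood apart from the rest by more than chance gives in about 1 of 20 groups, measured as its gap to the nearest array divided by the range of the group. In liver P1 replicate 1 accounts for 4 of them, as the lowest array in *Cpt1a* (0.859), *Crat* (0.864) and *Crot* (0.839) and the highest in *Bbox1* (0.921). The others in liver were *Cpt1b* at P4, where replicate 2 was lowest (0.944), and *Tmlhe* at F22, where replicate 4 was lowest (0.892). In muscle they were *Aldh9a1* at F22 (replicate 5 lowest, 0.714), *Bbox1* at P4 (replicate 5 highest, 0.793), *Cpt1a* at P4 (replicate 2 highest, 0.939), *Cpt1b* at F16 (replicate 5 highest, 0.721), *Crot* at P1 (replicate 5 lowest, 0.888) and *Tmlhe* at P4 (replicate 4 lowest, 0.799).

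The change of a member differed between liver and muscle, by a test of the difference itself, in 14 cases, given as the liver log2 change minus the muscle log2 change. From F16 to P4 the difference was 2.71 for *Cpt1a*, -2.92 for *Cpt1b*, 0.72 for *Cpt1c*, 1.08 for *Cpt2*, -0.71 for *Crat*, 1.74 for *Crot*, 1.93 for *Bbox1* and 0.86 for *Aldh9a1*. From F22 to P1 it was 2.24 for *Cpt1a*, 1.03 for *Cpt1b*, 0.77 for *Cpt2*, 0.75 for *Crat*, 0.95 for *Crot* and -0.36 for *Aldh9a1*. *Cpt1b* thus rose more in muscle over the series and more in liver across birth.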

How the results depend on the processing

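Of the changes of single members, 5276 values under the alternatives kept their direction and side of the threshold, 99 fell short of it and 53 newly passed. A further 34 turned sign, all where neither setting made a call, and 0 called changes did. Counts of called members moved by over 1.5 times only in muscle. From F20 to F22 the count was 1 in the reported setting, 2 at the unadjusted threshold, 3 with array weights and 2 without the 4 muscle arrays that lay apart, and from F22 to P1 it was 4 against 7 at the unadjusted threshold. Leaving out 1 array gave counts of 5 to 7 for liver from F20 to F22, 6 to 6 from F22 to P1, 2 to 3 from P1 to P4 and 8 to 9 from F16 to P4, and for muscle 3 to 5 from F22 to P1, 4 to 7 from P1 to P4 and 7 to 8 from F16 to P4. The growth of *Cpt1a* minus *Cpt1b* was 3.50 to 3.61 in liver from F16 to P4, 0.91 to 1.24 from F22 to P1 and 1.58 to 1.68 from P4 to P90, where 3 against 4 arrays cannot reach the threshold in an exact permutation test. In muscle from F16 to P4 it was -2.14 to -2.03, and each of these passed. Within a tissue, deviations of samples that share a replicate number across stages had a median correlation of 0.01 in liver and 0.01 in muscle. Single pairs ran from -0.40 to 0.36, and the medians for unlike numbers were -0.003 and 0.008. Of 20 liver and 25 muscle arrays, 8 and 2 correlated best with their own number, among 4 numbers in liver and 5 in muscle. The numbers thus showed no clear pairing across stages, and the check does not settle whether samples were paired. Whether liver and muscle of 1 stage and number came from the same animal was not checked, and the tests between tissues took all arrays as independent. With the replicate block 6 members were called in liver from F22 to P1, as without it, and 2 against 3 from P1 to P4 and 8 against 9 from F16 to P4. The cause of these shifts was not tested.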

Other observations

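The genes whose course over the arrays was most like that of a member are given as a description, since arrays of a stage share that stage. Over the 24 liver arrays the highest Pearson correlations with *Cpt1a* were those of *Gpld1* (0.988), a phospholipase secreted by hepatocytes, *Ahr* (0.987), a receptor for dioxin-like ligands, *Tfr2* (0.984), a sensor of transferrin iron, *Serpina3c* (0.984), a secreted protease inhibitor, and *Agxt* (0.981), which detoxifies glyoxylate. *Cpt2* in liver was most like *Pc* (0.980), which makes oxaloacetate from pyruvate, *Apof* (0.970), a lipoprotein component, *Acadvl* (0.968), the long-chain acyl-CoA dehydrogenase of the inner membrane, *Ftcd* (0.965), a histidine-degrading enzyme, and *Etfdh* (0.963), which passes electrons of β-oxidation to ubiquinone. *Acadvl* and *Etfdh* belong to the β-oxidation list.

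*Bbox1* in liver was most like *Uox* (0.979), which oxidises urate, *Camk1d* (0.976), a calcium-dependent kinase, *Ttpa* (0.974), the vitamin E transfer protein, *Nxpe4* (0.974) and *Chdh* (0.972), the choline dehydrogenase that yields betaine. Over the 30 muscle arrays *Cpt1b* was most like *Camk2b* (0.994), a calcium-dependent kinase, *Sypl2* (0.993), a protein of the triad membranes, *Entpd2* (0.992), which hydrolyses extracellular ATP, *Tmem182* (0.992), a membrane protein of muscle, and *Myf6* (0.991), a myogenic transcription factor.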
